A study of Homo sapiens with 9 samples.

Results

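Integrin subunits and laminin chains were examined as transcripts in cultured RBE cells, a human tumour line derived from an intrahepatic bile duct carcinoma. The members were all rows of the deposited expression table whose gene name is that of an integrin alpha subunit, an integrin beta subunit or a laminin alpha, beta or gamma chain. This rule found 38 of 36225 genes, 26 of them integrin subunits and 12 laminin chains. The cells carried lentivirus with a short hairpin RNA against IDH1 (shIDH1), a short hairpin RNA against JOSD2 (shJOSD2) or a scramble sequence (control). Each group had 3 libraries of poly(A) RNA, 9 in all, and the series title places the work on mutant IDH1, the deubiquitinase JOSD2 and the coactivators YAP and TAZ. The labels name 1 hairpin label per target, give no time after infection, and do not say whether a group's replicates were infected or grown separately, so each p-value reflects the spread among the sequenced replicates, which may be technical.

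Integrins are transmembrane receptors in which an alpha subunit pairs with a beta subunit, and the pair decides the ligand. ITGB1 partners with most alpha subunits, ITGB4 with ITGA6 alone in hemidesmosomes, and ITGB2 with the alpha subunits of leukocytes. Laminins are the secreted trimers of an alpha, a beta and a gamma chain that form the basement membrane beneath epithelia, bile ducts included, and are bound by integrins such as ITGA3-ITGB1 and ITGA6-ITGB4.

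Biliary keratin transcripts were abundant in every group, at differing levels. At an edgeR adjusted p under 0.05, 3 of 8 biliary markers rose and 2 fell in shIDH1 cells. In shJOSD2 cells 1 rose and 4 fell, where 50.1% and 38.3% of all tested genes passed in the same order. KRT8 averaged 534, 325 and 361 FPKM in shIDH1, shJOSD2 and control libraries. The biliary keratin transcript KRT7 lay at 186 to 207 FPKM in shIDH1, 309 to 322 in shJOSD2 and 312 to 403 in control libraries (FPKM, fragments scaled to transcript length and library size), and KRT19 lay at 408 FPKM or more in each library. IDH1 stood at 12.6 ± 0.446 FPKM in shIDH1, 34.5 ± 1.56 in shJOSD2 and 44.0 ± 4.44 in control libraries, and JOSD2 at 1.68 ± 0.174, 0.795 ± 0.101 and 6.37 ± 0.260 in the same order (SD, n = 3 each). Library totals lay between 66036276 and 71612713 deposited counts. RNA was taken from whole cultures, so fewer cells expressing a transcript and less of it per cell cannot be told apart.

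Promoter sequences from RefSeq (GRCh38.p14) were found for 26 of the 38 members, in 33 windows, since some genes have several starts. The 250 bases before each start are described, and 4 are printed. ITGA10 and ITGA5 hold the member matches nearest to a start for TEAD, the DNA-binding partner of YAP and TAZ, and LAMA3 and LAMB3 hold all member matches for AP-1, which often occupies the same enhancers. Capitals mark the motif, GGAATG or CATTCC for TEAD and TGANTCA for AP-1, and each sequence runs from 5′ to 3′ on the strand of the gene.
ITGA10, chr1:145910051-145910300, minus strand: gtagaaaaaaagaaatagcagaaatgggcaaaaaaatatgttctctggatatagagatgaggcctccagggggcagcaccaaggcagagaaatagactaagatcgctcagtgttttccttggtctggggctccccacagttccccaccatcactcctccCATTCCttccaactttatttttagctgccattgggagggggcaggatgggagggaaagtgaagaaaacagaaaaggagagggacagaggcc
ITGA5, chr12:54419267-54419516, minus strand: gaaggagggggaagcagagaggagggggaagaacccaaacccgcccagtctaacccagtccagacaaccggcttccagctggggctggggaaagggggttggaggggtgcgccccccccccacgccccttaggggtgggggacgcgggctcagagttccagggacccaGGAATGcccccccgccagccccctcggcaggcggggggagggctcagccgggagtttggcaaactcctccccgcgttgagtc
LAMA3, chr18:23872770-23873019, plus strand: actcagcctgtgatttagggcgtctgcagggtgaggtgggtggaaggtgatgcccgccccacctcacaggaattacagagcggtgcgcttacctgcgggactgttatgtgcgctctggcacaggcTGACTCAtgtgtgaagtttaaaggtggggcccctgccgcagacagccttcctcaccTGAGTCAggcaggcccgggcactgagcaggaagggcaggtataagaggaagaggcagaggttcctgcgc
LAMB3, chr1:209651375-209651624, minus strand: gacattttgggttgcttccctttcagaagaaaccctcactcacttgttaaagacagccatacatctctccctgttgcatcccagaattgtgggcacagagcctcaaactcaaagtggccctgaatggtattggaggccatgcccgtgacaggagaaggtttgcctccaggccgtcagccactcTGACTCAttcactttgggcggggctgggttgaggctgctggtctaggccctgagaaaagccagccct

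The TEAD match begins 91 bases before the start in ITGA10 and 82 bases before it in ITGA5. AP-1 matches begin 125 and 69 bases before the start in LAMA3 and 67 bases before it in LAMB3. The printed ITGA10, LAMA3 and LAMB3 windows belong to starts inside the deposited gene bounds, and the data do not show which start these cells used. The other LAMB3 windows, including the one that ends at the deposited gene start, hold no AP-1 match. A TEAD match on either strand was present in 4 of 33 member windows (the others being in ITGB1 and LAMA2), and in 11.9% of all 35116 promoter windows. An AP-1 match was present in 2 of 33 member windows and in 6.57% of all windows. The motifs were thus about as frequent in the members as among all promoters, and these matches are a description of the letters only.

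In shIDH1 cells most members of both families were higher than in control. Of 37 tested members 22 rose and 4 fell, at a Benjamini-Hochberg adjusted p under 0.05 in edgeR fitted to all genes. Among all 21492 tested genes 50.1% were called, 24.5% higher and 25.6% lower. At least 2-fold, 15 members rose and 2 fell, where 9.77% of all tested genes rose and 9.4% fell that far. The FPKM ranges of shIDH1 and control were apart for 26 members, and for 56.9% of all tested genes. The median log2 change of the members was 0.83, against 0.01 for all tested genes. In shJOSD2 cells 15 members rose and 7 fell, where 38.3% of all tested genes were called, 18.2% higher and 20.1% lower, and the medians were 0.15 for the members and 0.03 for all tested genes. At least 2-fold, 9 members rose and 0 fell (all tested genes 6.58% and 4.25%), and the ranges were apart for 25 members and for 51.7% of all tested genes. The balance of calls there depended on scaling, with 3907 genes higher and 4330 lower on TMM-scaled counts, and 5638 higher and 2934 lower on library sizes without TMM factors, which shift the median of all genes to 0.18. ITGA8 was not tested, with 4 counts in control replicate 1 and none elsewhere. The members together summed to 1763 to 1787 FPKM in shIDH1, 1143 to 1175 in shJOSD2 and 922 to 1034 in control libraries. The largest parts were ITGB1, averaging 626, 463 and 351 FPKM in the same order, and ITGA3, averaging 433, 182 and 155. The FPKM sums carry no TMM factors.

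**Figure D1:**
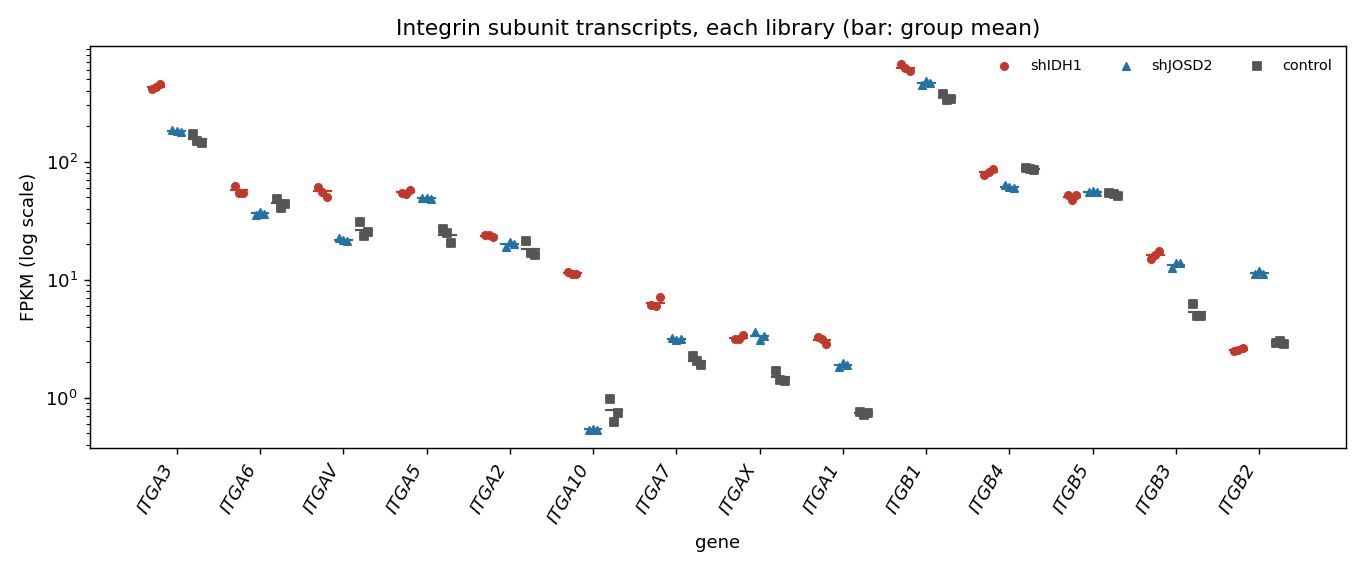
Integrin subunit transcripts averaging at least 1 FPKM in a group, as FPKM on a log axis, with 1 point per library and a bar at the group mean (shIDH1, shJOSD2 and control from left to right for each gene). ITGA10 lies near 11 FPKM in shIDH1 libraries and below 1 in the others, ITGB2 near 11 FPKM in shJOSD2 libraries and near 3 in the others, while ITGB5 stays near 50 in all.

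ITGB1, the beta subunit shared by most adhesion receptors, was the most abundant member in every group. It stood at 669, 621 and 589 FPKM in shIDH1 replicates 1 to 3, at 449, 480 and 461 in shJOSD2 and at 377, 335 and 341 in control. The 3 groups did not overlap, and shIDH1 libraries were the highest. On the log2 scale ITGB1 rose by 0.83 ± 0.06 with shIDH1 (SE, edgeR adjusted p = 2.19e-07) and by 0.25 ± 0.06 in shJOSD2 cells (edgeR adjusted p = 0.00546). ITGB1-DT lies divergently on the opposite strand and overlaps ITGB1. It stood at 3.61 ± 0.0897, 6.56 ± 0.887 and 4.65 ± 0.353 FPKM in shIDH1, shJOSD2 and control libraries, and its part in the ITGB1 values was not tested. The smaller change of ITGB1 in shJOSD2 cells was not called when control replicate 1 was the only control, with a log2 change of 0.18.

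ITGB3, the beta subunit of the vitronectin receptor with ITGAV, stood at 15.0, 16.1 and 17.7 FPKM in shIDH1 libraries, 12.5, 13.8 and 13.8 in shJOSD2 libraries and 6.25, 4.91 and 4.90 in control libraries. Both hairpin groups lay above control in every library, by 3.04-fold in shIDH1 cells (edgeR adjusted p = 3.93e-08) and 2.26-fold in shJOSD2 cells (edgeR adjusted p = 1.57e-06). ITGB5, the other vitronectin-binding partner of ITGAV, averaged 50.5 ± 2.67 FPKM in shIDH1, 55.6 ± 0.537 in shJOSD2 and 52.8 ± 1.56 in control libraries (SD, n = 3 each) and passed the test in no comparison. The ratio of ITGB3 to ITGB5 within a library, which does not depend on scaling, was 0.288 to 0.340 in shIDH1, 0.225 to 0.251 in shJOSD2 and 0.0928 to 0.115 in control libraries.

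ITGB4, which joins ITGA6 to keratin filaments in hemidesmosomes, gave 76.8, 81.0 and 86.9 FPKM in shIDH1, 63.7, 60.6 and 59.4 in shJOSD2 and 87.6, 86.2 and 84.7 in control libraries. It fell by 0.64 ± 0.06 on the log2 scale in shJOSD2 cells (edgeR adjusted p = 9.78e-06), where all 3 libraries lay below every other library. In shIDH1 cells its log2 change of -0.08 ± 0.06 did not pass the test. GALK1 overlaps ITGB4 on the opposite strand. It stood at 11.3 ± 0.191, 10.7 ± 0.275 and 11.9 ± 1.80 FPKM in shIDH1, shJOSD2 and control libraries, and its part in the ITGB4 values was not tested.

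ITGB2, the beta subunit of leukocyte integrins, was highest in shJOSD2 cells. It stood at 2.51, 2.54 and 2.63 FPKM in shIDH1 libraries, 11.3, 11.8 and 11.1 in shJOSD2 libraries and 2.89, 3.03 and 2.87 in control libraries. The shJOSD2 libraries were far above both other groups, 3.50-fold above control (log2 change 1.81 ± 0.07, edgeR adjusted p = 8.36e-09). The log2 change of -0.20 ± 0.07 in shIDH1 cells passed the test (edgeR adjusted p = 0.0338) but was lost in 6 of 9 fits that each left out 1 library, every library except control replicates 1 and 3 and shIDH1 replicate 3 (edgeR adjusted p = 0.0686 to 0.102). ITGB2-AS1, an antisense transcript of the locus, averaged 0.359 ± 0.152 FPKM in shIDH1, 1.19 ± 0.866 in shJOSD2 and 0.810 ± 0.0977 in control libraries. The strand setting of the counting is not given, so reads of the antisense transcript cannot be told apart from those of ITGB2.

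ITGB6, an epithelial beta subunit that binds latent TGF-beta with ITGAV, stayed near or below 1 FPKM, with 1.08, 0.847 and 0.890 in shIDH1, 0.568, 0.577 and 0.473 in shJOSD2 and 0.281, 0.253 and 0.499 in control libraries. It rose in shIDH1 cells by 1.44 ± 0.24 on the log2 scale (edgeR adjusted p = 0.000302). ITGB8, another partner of ITGAV, lay between 0.233 and 0.479 FPKM in the 6 hairpin libraries and between 0.0553 and 0.188 in control. It passed the test in both comparisons, by 1.40 ± 0.39 in shIDH1 and 1.38 ± 0.39 in shJOSD2 cells, and lost the call without shIDH1 replicate 1 (edgeR adjusted p = 0.0535) or without shJOSD2 replicate 3 (edgeR adjusted p = 0.0536) in the comparison each belongs to. ITGB7, a lymphocyte beta subunit, stayed below 0.1 FPKM in all 9 libraries.

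Collagen-binding alpha subunits held the member with the largest change among those of at least 1 FPKM. ITGA10 (ENSG00000143127, GRCh38 chromosome 1, 145891208 to 145910111, minus strand), a collagen receptor known from cartilage, stood at 11.7, 11.1 and 11.2 FPKM in shIDH1 libraries, 0.533, 0.546 and 0.538 in shJOSD2 libraries and 0.979, 0.628 and 0.740 in control libraries. Every shIDH1 library was more than 10-fold above every other library. The fitted rise in shIDH1 cells was 14.4-fold (log2 change 3.85 ± 0.12, edgeR adjusted p = 8.59e-10), and in shJOSD2 cells ITGA10 fell by 0.68 ± 0.12 (edgeR adjusted p = 0.000906). The fall in shJOSD2 cells was not called by limma on log2(FPKM + 1) (adjusted p = 0.0714).

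ITGA1, the collagen receptor of mesenchymal cells, had 3.26, 3.14 and 2.88 FPKM in shIDH1, 1.83, 1.98 and 1.89 in shJOSD2 and 0.755, 0.714 and 0.747 in control libraries. The groups were fully separate, and the rises were 4.18-fold in shIDH1 cells (edgeR adjusted p = 9.18e-10) and 2.32-fold in shJOSD2 cells (edgeR adjusted p = 1.20e-07). PELO, a ribosome rescue factor gene nested on the same strand, stood at 10.3 ± 1.42, 7.23 ± 0.461 and 6.43 ± 0.284 FPKM in shIDH1, shJOSD2 and control libraries, and its part in the ITGA1 values was not tested. ITGA2, the main epithelial collagen receptor, had 23.7, 23.7 and 23.1 FPKM in shIDH1, 19.0, 21.0 and 19.9 in shJOSD2 and 21.3, 16.7 and 16.3 in control libraries. It rose by 0.38 ± 0.08 in shIDH1 cells (edgeR adjusted p = 0.00204), a call lost with control replicate 1 as the only control (edgeR adjusted p = 0.0767). ITGA11, a fibroblast collagen receptor, was at or below 0.0234 FPKM throughout. Through these changes ITGA10 made up 29.2% to 30.3% of the summed collagen-binding alpha FPKM in shIDH1, 2.32% to 2.49% in shJOSD2 and 3.47% to 4.24% in control libraries.

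All 3 laminin-binding alpha subunits rose in shIDH1 cells. ITGA3, which pairs with ITGB1 and was the most abundant alpha subunit in each group, stood at 412, 431 and 454 FPKM in shIDH1, 185, 180 and 179 in shJOSD2 and 171, 150 and 145 in control libraries. It rose in shIDH1 cells by 1.48 ± 0.07 on the log2 scale, or 2.79-fold (edgeR adjusted p = 7.73e-09). In shJOSD2 cells every library lay above control in FPKM, yet the log2 change of 0.08 ± 0.07 on TMM-scaled counts did not pass the test (edgeR adjusted p = 0.417). On library sizes without TMM factors the change was 0.23 and was called (edgeR adjusted p = 0.0182). With control replicate 1 alone as control the value turned to -0.03.

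ITGA7, a laminin receptor best known from muscle, stood at 6.14, 5.94 and 7.09 FPKM in shIDH1, 3.23, 3.10 and 3.14 in shJOSD2 and 2.25, 2.05 and 1.89 in control libraries. It rose 3.08-fold in shIDH1 cells (edgeR adjusted p = 3.93e-08) and 1.38-fold in shJOSD2 cells (edgeR adjusted p = 0.00193), the second call being lost with control replicate 1 as the only control (edgeR adjusted p = 0.0550). METTL7B, BLOC1S1 and AC009779 overlap ITGA7 on the opposite strand. METTL7B, the highest of these, stood above ITGA7 at 14.9 ± 0.830 FPKM in shIDH1, 19.2 ± 1.45 in shJOSD2 and 14.6 ± 1.24 in control libraries. AC009779 stood at 2.08 ± 0.0834, 4.66 ± 0.535 and 2.66 ± 0.712 FPKM in the same order. The part of these genes in the ITGA7 values was not tested. ITGA6, the partner of ITGB4 and also of ITGB1, moved in opposite directions. It had 62.5, 54.2 and 54.5 FPKM in shIDH1, 35.5, 37.7 and 36.1 in shJOSD2 and 48.2, 40.9 and 43.8 in control libraries. It rose by 0.36 ± 0.06 in shIDH1 cells (edgeR adjusted p = 0.000451) and fell by 0.43 ± 0.06 in shJOSD2 cells (edgeR adjusted p = 0.000225), with no overlap of the groups.

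Among subunits that bind the RGD tripeptide, ITGA5 rose with both hairpins and ITGAV with shIDH1. ITGA5, the alpha subunit of the main fibronectin receptor, stood at 54.6, 53.4 and 57.9 FPKM in shIDH1, 49.1, 49.6 and 48.4 in shJOSD2 and 27.1, 24.7 and 20.3 in control libraries. Its rise was 2.30-fold in shIDH1 (edgeR adjusted p = 2.63e-07) and 1.84-fold in shJOSD2 cells (edgeR adjusted p = 9.62e-06). ITGAV, shared by the receptors for vitronectin and latent TGF-beta, stood at 61.6, 55.8 and 50.7 FPKM in shIDH1, 22.5, 21.8 and 21.3 in shJOSD2 and 30.6, 23.3 and 25.2 in control libraries. It rose by 1.09 ± 0.09 in shIDH1 cells (edgeR adjusted p = 4.35e-07) and fell by 0.42 ± 0.09 in shJOSD2 cells (edgeR adjusted p = 0.00197). The fall was not called by limma on log2(FPKM + 1) (adjusted p = 0.0665). ITGA2B, the platelet alpha subunit, was below 0.2 FPKM in every library and rose in shIDH1 cells by 1.97 ± 0.54 (edgeR adjusted p = 0.00831).

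Leukocyte alpha subunits were low in these cells. ITGAX, a complement receptor subunit, had 3.14, 3.15 and 3.37 FPKM in shIDH1, 3.59, 3.07 and 3.32 in shJOSD2 and 1.68, 1.40 and 1.39 in control libraries. It rose 2.16-fold in shIDH1 cells (edgeR adjusted p = 1.31e-06) and 2.01-fold in shJOSD2 cells (edgeR adjusted p = 7.71e-06), and the hairpin groups overlapped each other. Its ratio to ITGB2, its partner, was 1.24 to 1.28 in shIDH1, 0.259 to 0.318 in shJOSD2 and 0.463 to 0.581 in control libraries.

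ITGAD, the close neighbour of ITGAX on chromosome 16, had no count in control and 186 counts over the shIDH1 libraries. This was at least 15.3-fold higher against an assumed floor of 12 counts over the control group (about 3 fragments if 1 fragment carries 4 counts). In shJOSD2 libraries ITGAD had 37 counts over the group, with none in replicate 3, as in every control library. Against the same floor this was at least 2.83-fold higher. The difference was called by edgeR (adjusted p = 0.0133) and not by limma on log2(FPKM + 1) (adjusted p = 0.309). ITGAE, which binds E-cadherin, had 0.482, 0.408 and 0.490 FPKM in shIDH1, 0.806, 0.661 and 0.832 in shJOSD2 and 0.928, 1.02 and 1.04 in control libraries. It fell by 1.11 ± 0.16 in shIDH1 (edgeR adjusted p = 6.44e-05) and by 0.53 ± 0.15 in shJOSD2 cells (edgeR adjusted p = 0.0159). HASPIN, a mitotic kinase gene nested in ITGAE on the opposite strand, stood at 0.487 ± 0.195 FPKM in shIDH1, 1.93 ± 0.0972 in shJOSD2 and 3.14 ± 0.369 in control libraries. Its order matches that of ITGAE, and its part in the ITGAE values was not tested. The call in shJOSD2 cells was lost without control replicate 3 (edgeR adjusted p = 0.0522) or shJOSD2 replicate 2 (edgeR adjusted p = 0.0807), and without TMM factors (edgeR adjusted p = 0.0720).

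ITGAM, a complement receptor subunit of myeloid cells, lay at 0.877 to 0.902 FPKM in shIDH1, 0.462 to 0.626 in shJOSD2 and 0.598 to 0.956 in control libraries. Its log2 change of -0.59 ± 0.20 in shJOSD2 cells was lost without control replicates 2 or 3 or shJOSD2 replicates 2 or 3 (edgeR adjusted p = 0.0537 to 0.154). ITGAL stayed between 0.228 and 0.413 FPKM and passed no test. ITGA4, a receptor for fibronectin and VCAM1, averaged below 0.5 FPKM in every group and fell by 1.04 ± 0.31 in shIDH1 cells, a call lost without control replicate 1 (edgeR adjusted p = 0.0621) or shIDH1 replicate 2 (edgeR adjusted p = 0.0501). ITGA9 was below 0.1 FPKM throughout.

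The 11 leukocyte markers listed summed to 32.1 to 36.6 FPKM in shIDH1, 36.3 to 45.0 in shJOSD2 and 43.2 to 55.0 in control libraries, most of it from CD68 and LCP1, and in shJOSD2 cells CD3D and CSF1R rose and CD68 and LCP1 fell, 4 of the 10 tested, near the 38.3% of all tested genes called. CSF1R, the receptor of macrophage growth factor, averaged 0.126 ± 0.0433 FPKM in shIDH1, 0.388 ± 0.0265 in shJOSD2 and 0.132 ± 0.0667 in control libraries, highest in shJOSD2 libraries as ITGB2 was. PTPRC stood at 0.574 to 0.837, 0.838 to 1.14 and 0.624 to 0.915 FPKM in shIDH1, shJOSD2 and control libraries, and SPI1 at 0.483 to 0.792, 0.957 to 1.14 and 0.442 to 0.935. The rise of CD3D rests on few counts, 11, 21 and 12 in shJOSD2 libraries and 0 in each control library. In shIDH1 libraries CD3D had 0, 10 and 4 counts. The part of these markers in the ITGB2 and ITGAX values was not tested.

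**Figure D2:**
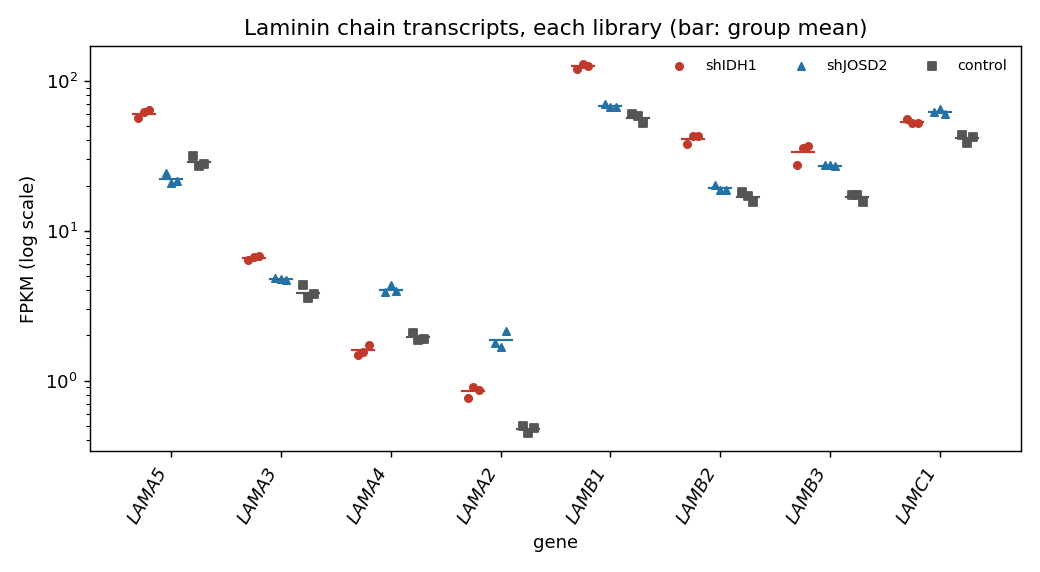
Laminin chain transcripts described here that averaged at least 1 FPKM in a group, as FPKM on a log axis, with 1 point per library and a bar at the group mean (shIDH1, shJOSD2 and control from left to right for each gene). LAMA5, LAMB1 and LAMB2 are highest in shIDH1 libraries, and LAMA4 and LAMA2 in shJOSD2 libraries.

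The laminin alpha chains went different ways with each hairpin. LAMA5, the alpha chain of mature epithelial basement membranes, stood at 56.0, 61.4 and 63.4 FPKM in shIDH1, 24.2, 20.9 and 21.3 in shJOSD2 and 31.5, 27.0 and 27.7 in control libraries. It rose 2.10-fold in shIDH1 cells (edgeR adjusted p = 2.56e-07) and fell by 0.52 ± 0.08 on the log2 scale in shJOSD2 cells (edgeR adjusted p = 0.000225), with the 3 groups apart. ADRM1, a proteasome receptor gene, overlaps LAMA5 on the opposite strand. It stood at 82.4 ± 2.56, 87.4 ± 3.63 and 89.7 ± 6.73 FPKM in shIDH1, shJOSD2 and control libraries. Its part in the LAMA5 values was not tested.

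LAMA4, a chain of vessels and mesenchyme, stood at 1.49, 1.56 and 1.72 FPKM in shIDH1, 3.88, 4.32 and 3.94 in shJOSD2 and 2.07, 1.87 and 1.9 in control libraries. It rose by 0.90 ± 0.08 in shJOSD2 cells (edgeR adjusted p = 4.47e-06). The log2 change of -0.29 ± 0.08 in shIDH1 cells passed the test (edgeR adjusted p = 0.0110) but not with upper-quartile scaling (edgeR adjusted p = 0.0945). LAMA2, the chain of muscle and nerve, stood at 0.762, 0.909 and 0.868 FPKM in shIDH1, 1.78, 1.69 and 2.13 in shJOSD2 and 0.497, 0.447 and 0.484 in control libraries. It rose 3.52-fold in shJOSD2 (edgeR adjusted p = 5.23e-07) and 1.77-fold in shIDH1 cells (edgeR adjusted p = 0.000123).

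LAMA3, the alpha chain of the epidermal anchoring laminin, stood at 6.39, 6.70 and 6.74 FPKM in shIDH1, 4.82, 4.78 and 4.69 in shJOSD2 and 4.32, 3.53 and 3.76 in control libraries. It rose 1.71-fold in shIDH1 cells (edgeR adjusted p = 8.82e-07), and its log2 change of 0.15 ± 0.07 in shJOSD2 cells did not pass the test (edgeR adjusted p = 0.0886). Without control replicate 1 that change was 0.23 and was called (edgeR adjusted p = 0.0126). LAMA1, the embryonic alpha chain, differed among control libraries themselves, with 0.107 FPKM in replicate 1, 0.562 in replicate 2 and 0.706 in replicate 3, and lay at 0.233 to 0.317 in shIDH1 and 0.354 to 0.484 in shJOSD2 libraries.

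All 3 abundant beta chains rose in shIDH1 cells. LAMB1, the widespread beta chain, stood at 120, 129 and 125 FPKM in shIDH1, 70.1, 66.9 and 66.9 in shJOSD2 and 60.1, 58.0 and 52.2 in control libraries, a 2.19-fold rise in shIDH1 cells (edgeR adjusted p = 3.68e-08). LAMB2, a beta chain of kidney and synapse basement membranes, stood at 38.0, 42.5 and 42.8 FPKM in shIDH1, 20.2, 18.6 and 18.7 in shJOSD2 and 18.0, 17.1 and 15.4 in control libraries, a 2.44-fold rise in shIDH1 cells (edgeR adjusted p = 4.48e-08). In shJOSD2 cells LAMB1 and LAMB2 lay above control in FPKM in every library, yet their log2 changes of 0.11 ± 0.07 and 0.04 ± 0.08 did not pass the test. On library sizes without TMM factors LAMB1 was called there, with a change of 0.27 (edgeR adjusted p = 0.00496). AC005046 overlaps LAMB1 on the opposite strand. It stood at 6.11 ± 0.732, 4.94 ± 0.485 and 3.25 ± 0.497 FPKM in shIDH1, shJOSD2 and control libraries. Its order matches that of LAMB1, and its part in the LAMB1 values was not tested. LAMB3, which assembles with LAMA3, stood at 27.5, 35.6 and 36.7 FPKM in shIDH1, 27.3, 27.3 and 26.9 in shJOSD2 and 17.4, 17.4 and 15.4 in control libraries. It rose 1.99-fold in shIDH1 (edgeR adjusted p = 5.20e-06) and 1.46-fold in shJOSD2 cells (edgeR adjusted p = 0.00110). LAMB4 was at most 0.228 FPKM in any library and rose by 1.44 ± 0.34 in shJOSD2 cells, a call lost with control replicate 1 as the only control (edgeR adjusted p = 0.0824).

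Transcripts of LAMC1, the gamma chain of most laminins, were higher with both hairpins. LAMC1 stood at 55.4, 52.1 and 51.9 FPKM in shIDH1, 61.4, 64.5 and 60.1 in shJOSD2 and 43.3, 38.3 and 42.3 in control libraries. It rose by 0.36 ± 0.05 in shIDH1 (edgeR adjusted p = 0.000131) and by 0.44 ± 0.05 in shJOSD2 cells (edgeR adjusted p = 5.17e-05). LAMC3 lay below 0.2 FPKM throughout, and its log2 change of 2.73 ± 0.87 in shJOSD2 cells was lost without control replicate 2 or any 1 shJOSD2 library (edgeR adjusted p = 0.0508 to 0.0805) and moved to 4.38 without control replicate 1.

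**Figure D3:**
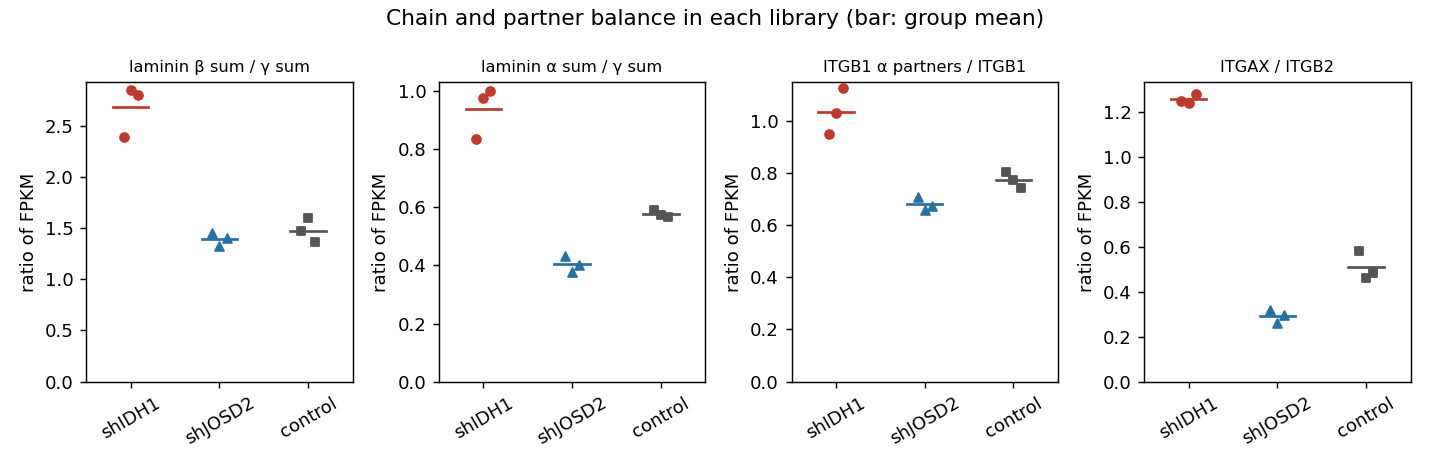
Ratios of summed or single FPKM within each library, with 1 point per library and a bar at the group mean, for shIDH1, shJOSD2 and control from left to right. The shIDH1 libraries lie above both other groups in all 4 panels, and the shJOSD2 libraries lie below control except for laminin beta over gamma, where the groups overlap.

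Chain sums within a library show these changes free of scaling. Laminin beta chains summed to 2.39, 2.85 and 2.80 times the gamma chains in shIDH1, 1.45, 1.32 and 1.40 times in shJOSD2 and 1.47, 1.59 and 1.36 times in control libraries. Laminin alpha chains summed to 0.834, 0.976 and 0.998 times the gamma chains in shIDH1, 0.433, 0.376 and 0.402 times in shJOSD2 and 0.592, 0.574 and 0.565 times in control libraries. The shIDH1 libraries were highest in both ratios, while shJOSD2 and control overlapped in the first and not in the second. LAMA5 made up 86.2% to 86.9% of alpha chain FPKM in shIDH1, 65.0% to 68.8% in shJOSD2 and 80.2% to 81.8% in control libraries, and LAMA4 made up 2.20% to 2.36%, 11% to 13.4% and 5.38% to 5.60% in the same order.

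The known alpha partners of ITGB1 summed to 0.950, 1.03 and 1.12 times ITGB1 in shIDH1, 0.707, 0.658 and 0.673 times in shJOSD2 and 0.803, 0.773 and 0.743 times in control libraries. This sum averaged 645, 315 and 272 FPKM in the same order, of which ITGA3 gave 433, 182 and 155. It includes ITGA6 and ITGAV, which also pair with other beta subunits. ITGB5 stood at 0.846 to 1.03 times ITGAV in shIDH1, 2.48 to 2.58 times in shJOSD2 and 1.77 to 2.27 times in control libraries. These ratios compare transcripts, not assembled receptors or trimers, and were not tested.

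**Figure D4:**
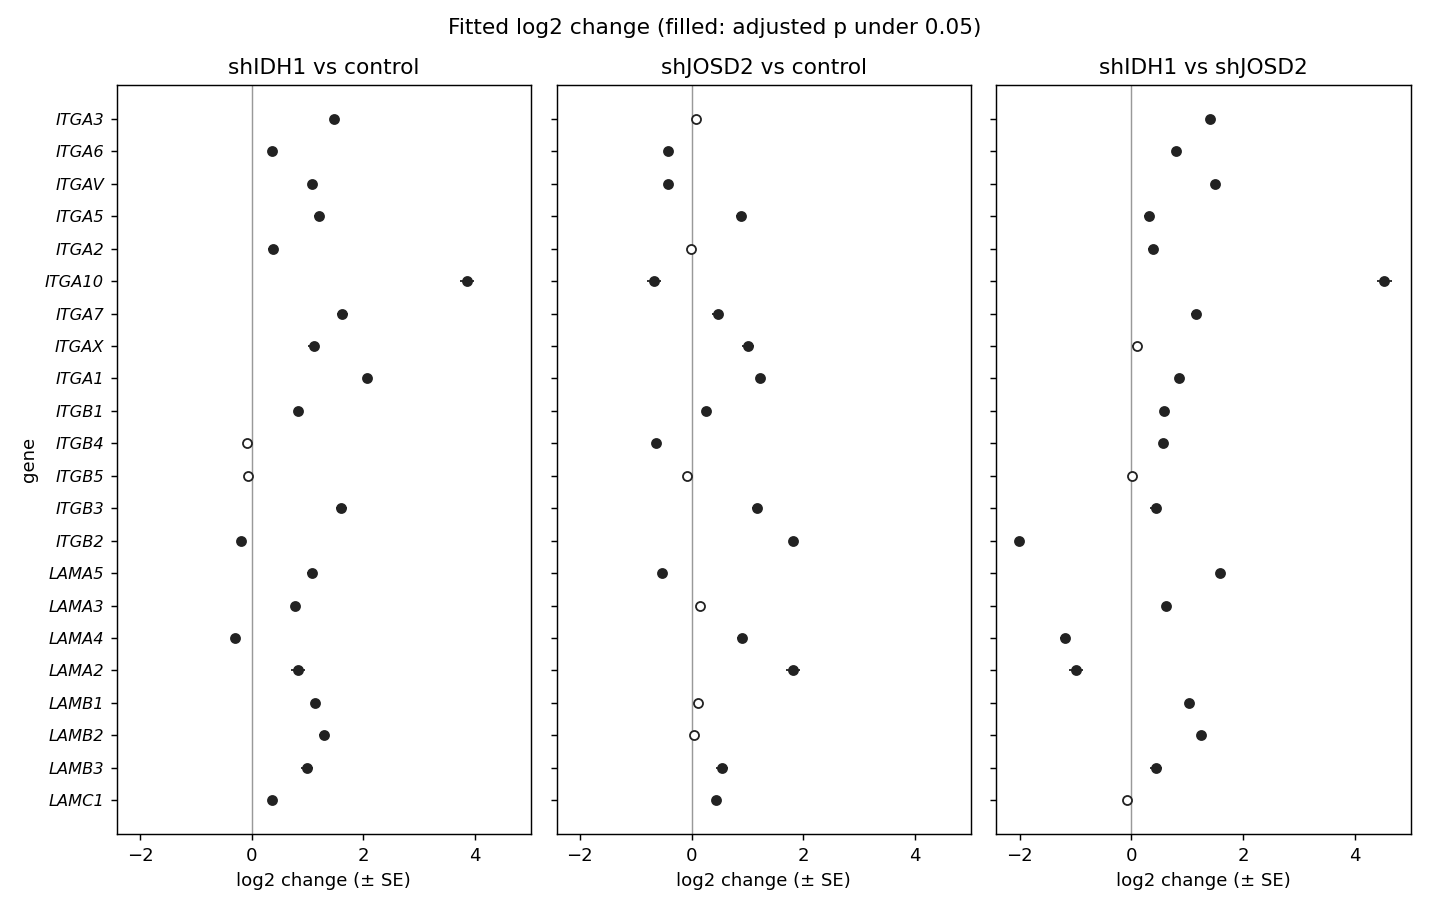
Fitted log2 changes with standard errors for the members described here that averaged at least 1 FPKM in a group, for shIDH1 against control, shJOSD2 against control and shIDH1 against shJOSD2, on a common axis, filled where the adjusted p was under 0.05. Among these members, ITGA10 at 3.85 is the largest change against control in shIDH1 cells and LAMA2 at 1.82 and ITGB2 at 1.81 are the largest in shJOSD2 cells, and ITGB5 is open in all 3 panels.

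The hairpins were also compared directly, since the comparisons above share the control libraries. Of the 37 tested members 19 were higher and 4 lower in shIDH1 than in shJOSD2 cells, where 44.8% of all tested genes were called, 20.8% higher and 24% lower, with a median log2 difference of 0.38 for the members and -0.06 for all genes. At least 2-fold, 7 members were higher and 2 lower (all tested genes 6.16% and 8%), and the ranges were apart for 30 members and for 58.4% of all tested genes. Over all genes 4479 were higher and 5156 lower, and 3316 and 6653 without TMM factors, where the median was -0.21. ITGA10 was 23.0-fold higher (log2 difference 4.53 ± 0.13, edgeR adjusted p = 5.17e-10), LAMA5 3.02-fold, ITGAV 2.84-fold and ITGA3 2.64-fold higher. ITGB2 was 4.02-fold lower (log2 difference -2.01 ± 0.07, edgeR adjusted p = 1.73e-09), LAMA4 2.29-fold lower, LAMA2 1.99-fold lower and ITGAE 1.5-fold lower. ITGAX, LAMC1 and ITGB5 did not pass, with log2 differences of 0.10 ± 0.10, -0.08 ± 0.05 and 0.01 ± 0.06. The differences of 0.32 for ITGA5 and 0.38 for ITGA2 were called on TMM-scaled counts and not on library sizes without TMM factors (edgeR adjusted p = 0.153 and 0.0519), while LAMC1 was then called lower (edgeR adjusted p = 0.00643).

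Other basement membrane genes moved in both directions in shIDH1 cells, more of them higher. Of 18 tested genes of that list 11 rose and 5 fell, with a median log2 change of 1.15, where 24.5% of all tested genes rose and 25.6% fell. Those that fell were FBLN1, NID2, COL4A6, COL15A1 and FREM2, with only FBLN1 averaging over 1 FPKM in either group. NTN4, a laminin-related netrin that binds laminin gamma chains, rose by 2.37 ± 0.06 to 344 FPKM in shIDH1, against 66.7 in control libraries (means of 3). COL4A1, a collagen of the basement membrane network, rose by 2.25 ± 0.07, COL18A1 by 1.93 ± 0.06 and COL4A4 by 1.67 ± 0.09. In shJOSD2 cells 6 rose and 6 fell with a median of 0.00 (all tested genes 18.2% and 20.1%), among them COL4A6, higher by 1.73 ± 0.17, COL4A2, higher by 0.81 ± 0.06, the matrix gene FRAS1, higher by 0.80 ± 0.06, and FBLN1, lower with a log2 change of -1.11 ± 0.24. FBLN1 stood at 0.973 to 1.25 FPKM in shJOSD2 libraries and at 1.34, 2.57 and 2.79 in control, so control replicate 1 lay close to the shJOSD2 libraries. Between the hairpins, HSPG2, the heparan sulphate proteoglycan perlecan, was 2.23 ± 0.10 higher on the log2 scale in shIDH1 than in shJOSD2 cells.

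Among 18 tested genes for other integrin ligands 11 rose and 2 fell in shIDH1 cells, with a median of 0.97, where 24.5% of all tested genes rose and 25.6% fell. The 2 that fell became 1 when control replicate 2 or 3, any 1 shIDH1 library or shJOSD2 replicate 1 was left out. CCN2, a matricellular protein and YAP/TAZ target, averaged 397 FPKM in shIDH1, 74.0 in shJOSD2 and 53.0 in control libraries. SPP1, encoding osteopontin, rose by 2.16 ± 0.10 and CCN1 by 1.67 ± 0.06. COL1A1, which also stands in the fibroblast marker list, rose by 1.53 ± 0.11. In shJOSD2 cells 5 rose (8 without TMM factors) and 2 fell, so that 38.9% were called, near the 38.3% of all tested genes. Their median was 0.25, with LTBP1 higher by 0.59 ± 0.09 and FN1, fibronectin, lower with a log2 change of -0.53 ± 0.11. FN1 stood at 17.8 to 19.2 FPKM in shJOSD2 libraries and at 19.8, 25.8 and 27.4 in control, and no ligand was called lower with control replicate 1 as the only control. The 2 that fell became 1 without control replicate 2 or 3 or without shJOSD2 replicate 1 or 3.

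Genes of the cytoplasmic side were more often lower than higher. Of 31 focal adhesion and integrin tail binding genes 9 rose and 18 fell in shIDH1 cells, with a median of -0.31 (all tested genes 24.5% and 25.6%). In shJOSD2 cells 3 rose and 21 fell, with a median of -0.38 (all tested genes 18.2% and 20.1%). On library sizes without TMM factors 6 rose in shJOSD2 cells. TNS4, a tensin that binds beta tails, averaged 0.463 FPKM in shIDH1, 2.13 in shJOSD2 and 4.86 in control libraries and fell in both. FERMT1, the epithelial kindlin that activates integrins, fell by 2.57 ± 0.07 in shIDH1 cells, and ZYX, zyxin, fell by 1.29 ± 0.09. NEDD9, a docking protein of the p130Cas family, rose by 1.67 ± 0.08 there. In shJOSD2 cells FLNA, an actin crosslinker that binds beta tails, fell by 1.0 ± 0.08, the kinase gene SRC by 0.84 ± 0.07 and PARVA, a partner of integrin-linked kinase, by 0.82 ± 0.06. SRC was 1.48 ± 0.07 higher on the log2 scale in shIDH1 than in shJOSD2 cells.

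Among 5 hemidesmosome genes 2 rose and 2 fell in shIDH1 cells, and 3 rose and 1 fell in shJOSD2 cells, with medians of 0.13 and 0.24, where 50.1% and 38.3% of all tested genes were called. The 3 that rose in shJOSD2 cells became 0 without shJOSD2 replicate 1 and 1 without control replicate 2 or shJOSD2 replicate 2. PLEC, plectin, which links ITGB4 to keratins, fell by 1.23 ± 0.09 in shJOSD2 cells, where ITGB4 and ITGA6 were also lower, and by 0.46 ± 0.09 in shIDH1 cells. COL17A1 fell by 1.12 ± 0.09 in shIDH1 cells and DST rose by 1.11 ± 0.11. Of 10 genes for other laminin receptors and dystroglycan modification 4 rose and 3 fell in shIDH1 cells, and 4 rose and 4 fell in shJOSD2 cells, with medians of -0.09 and 0.03 (all tested genes 50.1% and 38.3% called). With control replicate 1 as the only control 2 of them rose in shJOSD2 cells. DAG1, the laminin receptor dystroglycan, averaged 8.47 FPKM in shIDH1, 13.4 in shJOSD2 and 30.0 in control libraries. SDC4, a syndecan of focal adhesions, rose by 1.05 ± 0.07 in shIDH1 and fell by 0.59 ± 0.07 in shJOSD2 cells. Of 8 integrin-associated tetraspanins 3 rose and 2 fell in shIDH1 cells and 5 fell in shJOSD2 cells, with medians of 0.01 and -0.22 (all tested genes 50.1% and 38.3% called), CD9 among those that fell in both. The 5 that fell in shJOSD2 cells became 3 without shJOSD2 replicate 1, with limma, with upper-quartile scaling, without TMM factors or with control replicate 1 as the only control.

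Markers of other cell types moved with some of these groups. Fibroblast markers, 8 in number, summed to 15.5 to 19.4 FPKM in shIDH1, 17.2 to 17.8 in shJOSD2 and 8.10 to 9.35 in control libraries. LUM and DCN had at most 7 counts in any library and were not tested. PDGFRA averaged 8.07 ± 1.71 FPKM in shIDH1, 11.1 ± 0.383 in shJOSD2 and 5.19 ± 0.357 in control libraries, and PDGFRB 2.20 ± 0.190, 2.81 ± 0.125 and 0.441 ± 0.210 in the same order (SD, n = 3 each). In shIDH1 cells 4 of the 6 tested rose and in shJOSD2 cells 2, where 24.5% and 18.2% of all tested genes rose. Endothelial markers summed to at most 1.28 FPKM in any library, with 2 of 6 tested higher in shIDH1 cells (all tested genes 24.5%), and the 6 platelet markers, ITGA2B among them, to at most 0.773. Hepatocyte markers summed to 97.2 to 102 FPKM in shIDH1, 63.2 to 65.2 in shJOSD2 and 44.1 to 91.4 in control libraries. Of the 8 tested, 2 rose and 4 fell in shIDH1 cells, with a median log2 change of -1.04 (all tested genes 24.5% and 25.6%). The numbers were also 2 and 4 in shJOSD2 cells, with a median of -1.73 (all tested genes 18.2% and 20.1%). FGB averaged 42.9 FPKM in shIDH1, 7.13 in shJOSD2 and 1.70 in control libraries. APOA1 averaged 2.98, 4.32 and 29.5 FPKM in the same order, and ranged from 2.91 to 45.5 FPKM among control libraries alone. In control replicates 1 to 3 ALB stood at 0.104, 1.23 and 1.43 FPKM and TTR at 0.0376, 1.35 and 1.32. APOB stood at 0.0438, 0.491 and 0.526 there. Their means were 0.150, 0.343 and 0.0300 in shIDH1 and 0.175, 0.127 and 0.0452 in shJOSD2 libraries. Lower values than control for these genes thus rest on control replicates 2 and 3, and LAMA1 split the control libraries in the same way. The part of these markers in the member values was not tested.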

How the data were processed

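Polyadenylated RNA was turned into paired-end, dUTP strand-marked libraries with molecular identifiers, per the labels' protocols. The submitters' processing notes name StringTie 1.3.4d, HISAT2 2.0.4, cutadapt 1.9 and UMI-tools, and the build GRCh38. Which tool did which step, how reads were counted, on which strand and against which annotation release is not given in the sources used here. The deposited counts are whole numbers per gene, not normalized, and the deposited FPKM values are the authors' scaling by length and library size, both per the file headers. Low counts gather at multiples of 4, with 30.2% of counts from 1 to 20 there, where an even spread gives 25%, so 1 fragment may carry about 4 counts in part of the table. Whether counting error is larger than the counts imply was not tested.

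All 36225 genes entered 1 edgeR 4.0.16 fit in R 4.3.3 with a mean per group (filterByExpr, TMM, quasi-likelihood F-tests, Benjamini-Hochberg over 21492 tested genes at 0.05). Standard errors were obtained by dividing the size of the log2 change by the root of its F statistic. Alternatives were DESeq2 1.42.0, limma 3.58.1 on log2(FPKM + 1) and log2(FPKM + 0.1), other scalings and filters, counts divided by 4, a replicate block, only the groups compared, each library left out, and control replicate 1 alone, which was assumed to vary like the other groups. Library sizes without TMM factors were added after seeing the data.

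The members were named, except 1 that counts toward the totals and sums and is not reported here. Members averaging at least 1 FPKM in a group and called in a comparison were given in every library, and up to 4 called genes with the largest change at 1 FPKM or more were eligible from each other list. The members and lists were chosen with earlier results of these data known. Overlapping genes came from the deposited coordinates, and figures from matplotlib 3.10.9.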

Additional observations from a re-analysis of the deposited data

How the results depend on the processing

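The numbers of members called were 22 higher and 4 lower for shIDH1 against control, 15 and 7 for shJOSD2 against control, and 19 and 4 for shIDH1 against shJOSD2. Over fits that each left out 1 library they ranged from 21 to 23, 2 to 5, 13 to 18, 5 to 8, 16 to 20 and 4 to 6 in the same order. Members lower in shIDH1 cells numbered 2 with upper-quartile scaling. Members lower in shJOSD2 cells numbered 3 with limma on log2(FPKM + 1) and 4 on log2(FPKM + 0.1). Members lower in shIDH1 than in shJOSD2 cells numbered 8 with limma at either pseudocount and 7 with only the groups compared. Of 70 called results for single members described here, 63 kept call and direction whichever library was left out. DESeq2 and RLE scaling ended no call of a member. With counts divided by 4, 1 member call was lost, ITGB2 in shIDH1 cells (edgeR adjusted p = 0.0655). In that fit 1 was gained, LAMA3 in shJOSD2 cells (edgeR adjusted p = 0.041). With control replicate 1 as the only control 9 of the single-member calls were lost and 1 was gained. The cause of these shifts was not tested.

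No called member described here changed direction in any alternative run. Those that changed sign had not passed the test in the main analysis. With upper-quartile scaling, ITGB5 and ITGB4 in shIDH1 cells gave 0.0466 and 0.0304, and ITGB5 and ITGA2 in shJOSD2 cells 0.0141 and 0.0826. On library sizes without TMM factors, ITGB5 and ITGA2 in shJOSD2 cells gave 0.0803 and 0.147, and ITGB5 and ITGAX between the hairpins -0.14 and -0.0538. With limma on log2(FPKM + 1) the same 4 values were 0.073, 0.14, -0.13 and -0.0339, and on log2(FPKM + 0.1) 0.0742, 0.15, -0.14 and -0.0425, with ITGB5 between the hairpins then called (limma adjusted p = 0.0378 and 0.0428). ITGA2 in shJOSD2 cells gave 0.0197 with the stricter filter (40 counts in 3 libraries) and 0.0196 with counts divided by 4. With control replicate 1 as the only control, ITGA3 and LAMB2 in shJOSD2 cells gave -0.0305 and -0.0233. Leaving out 1 library gave ranges of -0.0693 to 0.12 for ITGA2 and -0.0135 to 0.0792 for LAMB2 in shJOSD2 cells, and -0.0225 to 0.0510 for ITGB5 between the hairpins.

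No pairing of libraries by replicate number was seen over all tested genes. Deviations from the group means correlated at -0.0180 to 0.0378 in the 9 same-numbered pairs and -0.0549 to 0.0287 in the 18 others. A pairing that touches only some genes might not show in this measure. With the replicate block 1 member call was lost, ITGAM in shJOSD2 cells (edgeR adjusted p = 0.0638), and none was gained. Counts of called genes in the 6 other lists changed by over 1.5 times, or to or from 0, in 49 recomputed values. In 695 they changed by at most 1.5 times or not at all. The lowest members rest on few counts, so their differences were at the limit of this depth.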
